A study of Mus musculus with 9 samples.

Results

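The genes described here are 35 markers of macrophages and monocytes, the phagocytes that clear and remodel heart muscle after an infarct. They were taken by symbol from the annotated rows of an array data set, with the brightest row kept per gene. Of the 35, 34 had a row, out of 19505 genes measured in all. The marker Cd68 was not analysed here. By textbook knowledge of the mouse heart, 7 of the measured markers were set apart as resident-like, 7 as recruited-like, and 20 as shared by most macrophages and monocytes.

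For each heart, RNA came from the border zone of the infarct (the peri-infarct region, dissected under a microscope without infarct core or remote muscle) of female mice, 80 to 100 days old at infarction. All mice, controls included, were SCID, an immunodeficient strain without working T and B lymphocytes, and all had the left anterior descending artery tied off 4 weeks earlier. They had been injected with exosomes precipitated from cardiomyocytes grown from induced pluripotent stem cells (iCM-Ex), with such cardiomyocytes themselves once they beat (iCM), or with saline. Each group had 3 hearts, each on its own Clariom S array (9 arrays). Neither the stem cells' species nor the dose or time of injection is given in the sources used here. Values are the authors' log2 signals, so that a difference of 1 is a doubling.

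The heart holds macrophages seeded before birth that renew themselves in place. In the mouse these carry the surface proteins TIMD4, LYVE1 and FOLR2 and little of the chemokine receptor CCR2. After an infarct, monocytes that carry CCR2 enter from the blood and turn into macrophages that take up debris and shape the scar. Macrophages of both origins need the growth factor receptor CSF1R and the transcription factor PU.1 (gene Spi1), and many of their activating receptors signal through the adaptor proteins TYROBP and FCER1G. In whole tissue, fewer cells of a type and less RNA per cell cannot be told apart.

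The tissue label was borne out by 11 cardiomyocyte markers, whose mean signal was 15.83 to 17.09 on all arrays. Lymphocyte and natural killer markers had a mean of 4.27 to 4.98 over 11 genes, beside median negative control signals of 4.76 to 5.56. Markers of other tissues were high on 3 arrays. The mean of 11 lung epithelium markers was 8.20 in replicate 3 of iCM-Ex and 10.86 in replicate 1 of iCM, against 4.20 to 5.68 on the other 7 arrays. Single lung genes were also high in iCM replicate 2, with the surfactant genes Sftpc at 11.02 and Sftpa1 at 6.97, where the highest saline signals were 5.96 and 4.27. The mean of 10 fast skeletal muscle markers was 13.40 in iCM replicate 2 (6.63 to 7.54 on the other arrays), and that of 7 adipocyte markers was 10.31 there (5.87 to 7.37). Control separation, the median positive control signal minus the median negative one on an array, was 3.63 to 4.01 in iCM-Ex, 2.47 to 3.21 in iCM and 3.26 to 3.56 in saline. Macrophage signal was present on every array, with Csf1r at 8.74 to 13.05 and Adgre1, which encodes F4/80, at 6.61 to 10.21. The mean signals of Marco and Itgax were below the median negative control in each group, as were those of Cx3cr1 and Lgals3 in iCM, so sizes of difference are uncertain for them.

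**Figure D1:**
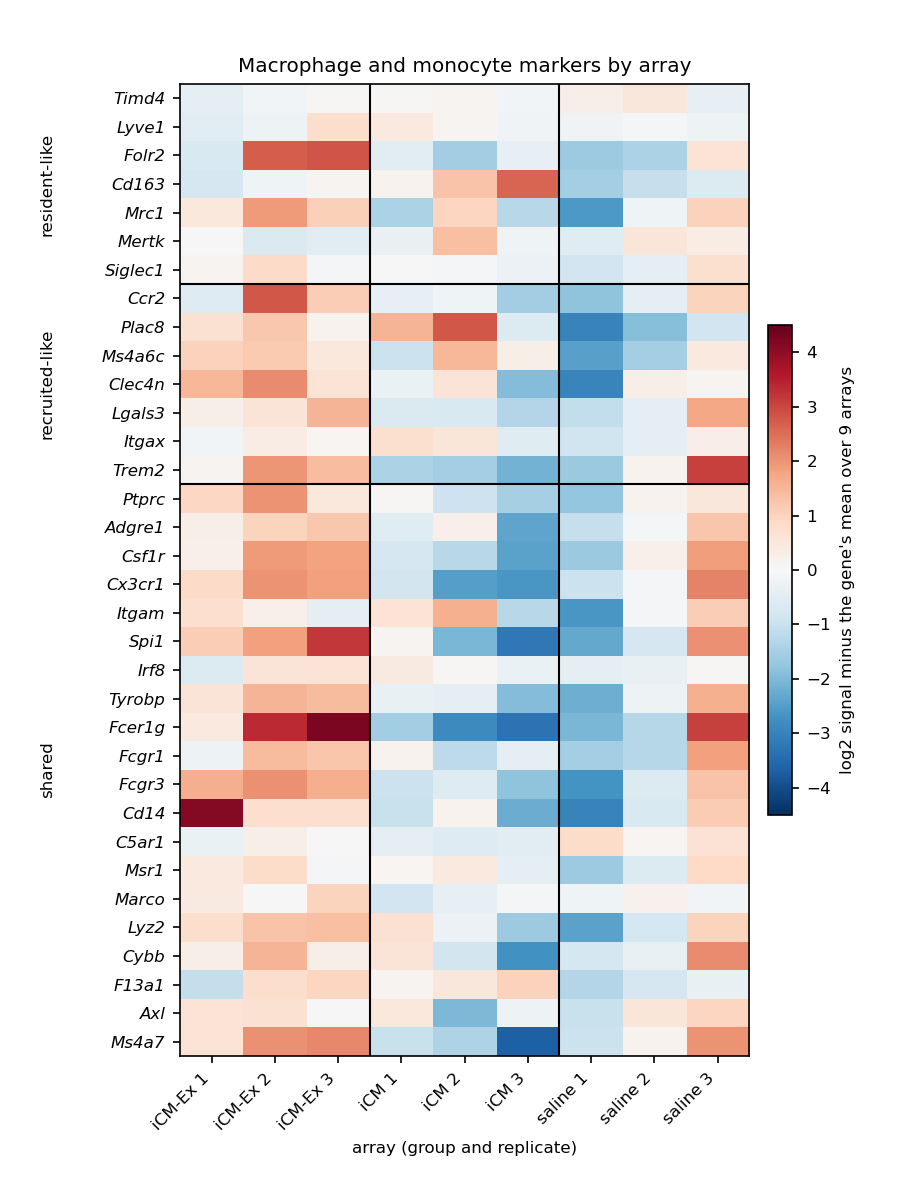
Each row is a marker and each column an array, and colour gives the log2 signal minus that gene's mean over the 9 arrays. Most shared markers are high in iCM-Ex and in saline replicate 3 and low in iCM replicate 3 and saline replicate 1, whereas Cd163 is highest in iCM replicate 3.

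The markers varied widely from heart to heart within a group. The median SD over the 3 arrays of a group was 0.65 in iCM-Ex, 0.88 in iCM and 1.45 in saline for the 34 markers, against 0.33, 0.41 and 0.41 over all genes. In saline, replicate 3 had the highest signal for 28 of 34 markers and replicate 1 the lowest for 31, against 35.4% and 47.9% of all genes. In iCM, replicate 3 had the lowest signal for 24 markers, against 31.9% of all genes. Among saline hearts the median SD was 0.57 for the resident-like, 1.48 for the recruited-like and 1.61 for the shared markers. The mean of the 20 shared markers was 10.31 to 11.02 in iCM-Ex hearts, 8.14 to 9.47 in iCM hearts and 8.24 to 10.98 in saline hearts. The saline hearts thus reached into both other groups, and iCM-Ex and iCM did not overlap.

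The first comparison asked how the border zone differed after exosomes and after the cells they came from. Most markers common to macrophages lay higher in iCM-Ex hearts, though none passed the test. Of the 34 markers 26 were higher, with a median difference of 1.61 (log2), against 46.1% of all genes and a median of −0.04. For 16 of them every iCM-Ex array lay above every iCM array, which held for 10.2% of all genes, and for 1 every iCM-Ex array lay below, as for 10% of all genes. Arrays did not overlap in either direction for 20.2% of all genes. None of the markers passed the threshold, a limma adjusted p of 0.05 over all 19505 genes, which 1.07% of all genes passed (0.795% higher and 0.272% lower). At an unadjusted limma p under 0.05 there were 15 higher markers and 1 lower, against 8.39% and 6.09% of all genes (14.5% in all). These 16 markers were 10 without iCM-Ex replicate 2, where 0 genes over the whole array passed the adjusted threshold, against 208 with all arrays. With 3 arrays against 3, the smallest p that exact permutation of 1 gene's values can give is 0.1.

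Of the shared markers 18 of 20 were higher, with a median of 1.71, and 13 did not overlap. The widest gap was that of Fcer1g, the adaptor chain through which the activating Fc receptors of macrophages signal. Its signals were 10.97, 13.90 and 14.78 in iCM-Ex, against 8.96, 7.66 and 7.20 in iCM, a difference of 5.28 ± 1.29 (SE, limma adjusted p = 0.0861). All 3 exosome hearts lay above all hearts given cells. Saline hearts had 8.49, 9.26 and 13.61, spread over both ranges. Fcgr3, an IgG receptor that works through this adaptor, was at 14.14, 14.56 and 14.14 in iCM-Ex, against 11.53, 11.90 and 10.70 in iCM (difference 2.90 ± 0.79, adjusted p = 0.112). The iCM-Ex hearts were close to each other, with an SD of 0.24. Tyrobp, the adaptor of TREM2 and related receptors, differed by 2.08 ± 0.81 (adjusted p = 0.263). It was at 10.11, 11.04 and 10.92 in iCM-Ex, against 9.17, 9.09 and 7.56 in iCM. Fcgr1, the high-affinity IgG receptor gene, overlapped between the groups, at 8.33 to 9.96 in iCM-Ex and 7.37 to 8.71 in iCM. Fcgr3 has closely related neighbours, and whether its probe set keeps them apart is not given in the sources used here.

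Cx3cr1, the receptor for fractalkine carried by patrolling monocytes and many tissue macrophages, was at 7.47, 8.63 and 8.44 in iCM-Ex, against 5.79, 4.12 and 3.97 in iCM. The difference was 3.55 ± 0.77 (95% interval 1.85 to 5.25, limma adjusted p = 0.0613), the smallest adjusted p among the markers in this comparison. Its iCM mean lay below the negative controls. Ms4a7, a tetraspan membrane protein gene of macrophages, was at 11.88, 13.29 and 13.42 in iCM-Ex, against 10.26, 9.87 and 7.57 in iCM (difference 3.63 ± 0.85, adjusted p = 0.0746). Spi1 was at 14.10, 14.82 and 16.19 in iCM-Ex, against 13.12, 10.93 and 9.78 in iCM (difference 3.77 ± 1.10, adjusted p = 0.136). For both genes the lowest heart was iCM replicate 3, and the exosome hearts lay above all hearts given cells. Irf8, a transcription factor of monocytes and dendritic cells, differed by 0.15, with a 95% interval of −0.68 to 0.98.

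Genes commonly used to define macrophages did not overlap between the groups. Csf1r was at 11.39, 13.05 and 12.97 in iCM-Ex, against 10.38, 9.90 and 8.74 in iCM (difference 2.80 ± 0.81, adjusted p = 0.135). Adgre1 was at 9.25, 9.98 and 10.20 in iCM-Ex, against 8.41, 9.21 and 6.61 in iCM (1.74 ± 0.69, adjusted p = 0.277). Ptprc, the CD45 phosphatase of leukocytes, was at 10.82, 11.91 and 10.37 in iCM-Ex, against 9.94, 8.95 and 8.38 in iCM (1.94 ± 0.64, adjusted p = 0.181). In each of the 3 genes iCM replicate 3 was lowest. Lyz2, the lysozyme gene used to drive Cre in myeloid cells, was at 18.32, 18.82 and 18.90 in iCM-Ex, against 18.23, 17.28 and 15.90 in iCM (1.54 ± 0.79, adjusted p = 0.419). Lyz2 has a near-identical neighbour, Lyz1, so its signal may hold both. Cd14, the co-receptor for bacterial lipopolysaccharide, stood out in 1 heart, with 12.63, 9.26 and 9.27 in iCM-Ex against 7.49, 8.66 and 6.29 in iCM. Its difference was 2.90 ± 1.13 (adjusted p = 0.263), and 1.78 without iCM-Ex replicate 1. Without iCM replicate 3 the differences were 1.0 for Adgre1 and 0.93 for Lyz2.

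Among the remaining shared markers, Marco and C5ar1 did not overlap either, with differences of 0.89 and 0.49. The scavenger receptor gene Msr1, the NADPH oxidase gene Cybb, the efferocytosis receptor gene Axl, the integrin gene Itgam and the clotting factor gene F13a1 overlapped between iCM-Ex and iCM. Their differences ran from −0.34 (F13a1) to 1.68 (Cybb). Itgam and Itgax, neighbouring integrin genes, differed by −0.13 and −0.14.

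**Figure D2:**
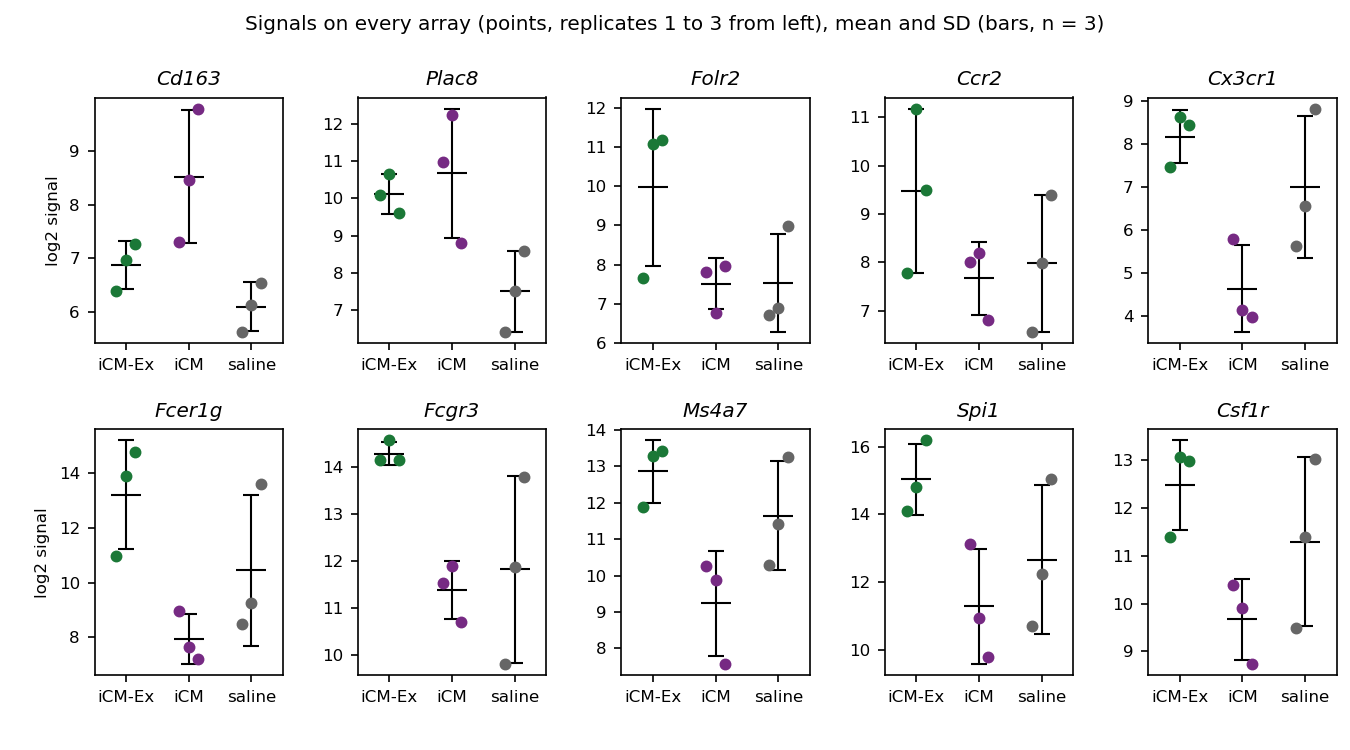
Log2 signals of 10 markers, with a point for each array (replicates 1 to 3 from left), the mean as a bar and the SD as whiskers (n = 3). In Cx3cr1, Fcer1g, Fcgr3, Ms4a7, Spi1 and Csf1r every iCM-Ex point lies above every iCM point while the saline points spread widely, and in Cd163 every iCM point lies above the saline and iCM-Ex points.

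The 7 recruited-like markers had a median of 1.68 between iCM-Ex and iCM, with 5 of 7 higher, whereas the 7 resident-like markers had a median of −0.10, with 3 of 7 higher. On leaving out single arrays the recruited-like median was 0.96 (without iCM-Ex replicate 2) to 1.93, and the resident-like median −0.31 to 0.16 (without iCM-Ex replicate 1). The difference between the lists was not tested. Trem2, a lipid-sensing receptor of macrophages that take up debris, was at 7.64, 9.52 and 8.89 in iCM-Ex, against 6.11, 5.99 and 5.40 in iCM (difference 2.85 ± 0.97, adjusted p = 0.194). The groups did not overlap, and the saline hearts spread over both, at 5.84, 7.69 and 10.58. The galectin gene Lgals3 and the C-type lectin gene Clec4n (Dectin-2) did not overlap, with differences of 1.68 and 1.96. Ccr2, which draws monocytes out of the marrow, was at 7.78, 11.17 and 9.49 in iCM-Ex, against 8.01, 8.19 and 6.81 in iCM (1.81 ± 0.87, adjusted p = 0.385). One exosome heart lay within the range of the hearts given cells, and the difference was 0.96 without iCM-Ex replicate 2. Plac8, a gene of inflammatory monocytes, and Itgax, which encodes CD11c, differed by −0.56 and −0.14, and the monocyte gene Ms4a6c by 0.63.

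Timd4, a phosphatidylserine receptor and the narrowest marker of self-renewing macrophages, was at 5.09, 5.41 and 5.59 in iCM-Ex, against 5.60, 5.66 and 5.42 in iCM. The difference was −0.20, with a 95% interval of −0.86 to 0.47, at signals near the negative controls. Lyve1, a hyaluronan receptor shared with lymphatic vessels, was at 8.97, 9.23 and 10.25 in iCM-Ex, against 9.88, 9.58 and 9.28 in iCM. Its difference was −0.10, with an interval of −0.88 to 0.69. Neither gene separated the groups. The folate receptor gene Folr2 did not follow them. It was at 7.66, 11.07 and 11.18 in iCM-Ex, against 7.82, 6.76 and 7.97 in iCM (difference 2.45 ± 0.91, adjusted p = 0.241, and 3.61 with an adjusted p of 0.0294 without iCM-Ex replicate 1). The high values came from replicates 2 and 3, while replicate 1 lay within the iCM range. The mannose receptor gene Mrc1 differed by 1.72, the efferocytosis receptor gene Mertk by −0.64 and the sialic acid receptor gene Siglec1 by 0.41, all with overlapping arrays. Cd163, the receptor that clears haemoglobin bound to haptoglobin, was the marker whose iCM-Ex arrays lay below all iCM arrays, with a difference of −1.64 (adjusted p = 0.19), and −1.01 without iCM replicate 3.

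These higher signals in iCM-Ex came with other differences between the arrays. The ranges of control separation did not overlap between iCM-Ex and iCM. With it as a covariate the median of the 34 markers was 0.57, and 0 markers had an unadjusted limma p under 0.05. Over the whole array 0 genes then passed the adjusted threshold. Fibroblast markers also lay higher in iCM-Ex, in 9 of 9 genes with a median of 1.44, and endothelial markers lay lower in 7 of 9, with a median of −0.89. The part of cell composition in the result was not tested. Without the 2 arrays with the highest lung markers, 28 of 34 markers were higher, with a median of 1.56, and 20 did not overlap upwards, against 20.7% of all genes. Without iCM replicate 2 as well, iCM replicate 3 was the only iCM array, and 29 markers were higher, with a median of 1.73. That heart had the lowest signal of the iCM hearts for 24 of the 34 markers, so this setting also reflects which heart was kept. Other choices gave 0 to 3 markers past the threshold. Cx3cr1 passed without saline replicate 1, saline replicate 3 or iCM replicate 1, Fcgr3 without saline replicate 1 or 3, and Fcer1g without saline replicate 3 or iCM-Ex replicate 1.

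Promoter sequence was looked at for the members that separated the groups, since PU.1 binds purine-rich sites close to the start of many myeloid genes. The 300-base windows below run from 250 bases before to 50 after a transcript start in RefSeq's mouse assembly GRCm38.p6, on the gene's own strand. Capitals mark GAGGAA, the core of PU.1 sites, searched on both strands, where GGAA alone is the core of all Ets factors. The gene called in iCM is shown first, then 4 of those higher in iCM-Ex.
Cd163 (chr6:124304401-124304700, plus strand): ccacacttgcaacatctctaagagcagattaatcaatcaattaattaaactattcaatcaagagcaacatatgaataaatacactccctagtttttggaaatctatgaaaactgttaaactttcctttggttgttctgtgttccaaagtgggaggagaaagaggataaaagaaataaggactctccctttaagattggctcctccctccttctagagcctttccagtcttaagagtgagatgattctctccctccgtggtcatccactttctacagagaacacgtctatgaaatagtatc
Fcer1g (chr1:171234300-171234599, minus strand): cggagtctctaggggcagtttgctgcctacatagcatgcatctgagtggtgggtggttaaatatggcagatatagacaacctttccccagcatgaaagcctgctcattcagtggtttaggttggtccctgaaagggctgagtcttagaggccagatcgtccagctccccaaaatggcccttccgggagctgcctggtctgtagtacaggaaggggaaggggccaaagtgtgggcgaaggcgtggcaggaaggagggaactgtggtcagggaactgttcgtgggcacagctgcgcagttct
Cx3cr1 (chr9:120068247-120068546, minus strand): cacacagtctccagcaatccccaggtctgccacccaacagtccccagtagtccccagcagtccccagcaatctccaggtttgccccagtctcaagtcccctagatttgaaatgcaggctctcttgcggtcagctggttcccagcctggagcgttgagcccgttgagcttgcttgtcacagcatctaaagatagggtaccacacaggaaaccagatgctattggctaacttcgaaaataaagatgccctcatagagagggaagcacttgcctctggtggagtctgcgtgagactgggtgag
Fcgr3 (chr1:171059345-171059644, minus strand): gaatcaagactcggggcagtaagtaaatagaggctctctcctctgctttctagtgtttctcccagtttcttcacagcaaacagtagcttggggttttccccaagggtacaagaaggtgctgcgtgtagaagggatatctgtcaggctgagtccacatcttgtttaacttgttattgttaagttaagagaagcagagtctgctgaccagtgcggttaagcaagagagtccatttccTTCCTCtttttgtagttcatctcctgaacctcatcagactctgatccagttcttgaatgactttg
Ms4a7 (chr19:11336097-11336396, minus strand): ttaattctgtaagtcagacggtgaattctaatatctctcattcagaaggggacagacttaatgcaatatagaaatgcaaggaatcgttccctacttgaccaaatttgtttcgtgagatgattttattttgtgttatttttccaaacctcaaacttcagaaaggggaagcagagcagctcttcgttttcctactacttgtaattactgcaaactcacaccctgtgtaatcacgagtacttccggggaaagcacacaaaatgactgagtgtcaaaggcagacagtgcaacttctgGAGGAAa

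In Fcgr3 the 6 letters lay on the opposite strand, so that they read TTCCTC here, and began 15 bases before the first transcribed base, and in Ms4a7 they began 43 bases after it. Fcgr3 and Ms4a7 each have 2 windows, and of windows with the most matches the one with the lowest start coordinate is shown. Both windows of Fcgr3 held GAGGAA, but only 1 of the 2 of Ms4a7 did. The windows of Cd163, Fcer1g and Cx3cr1 did not hold them. Of the 34 markers 25 had a window, and 12 of the 25 (48%) held GAGGAA in at least 1, against 31.3% of the 27025 genes with a window. Counted by window, the shares were 43.8% and 28.3%. A match is a run of letters and not a shown binding site.

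**Figure D3:**
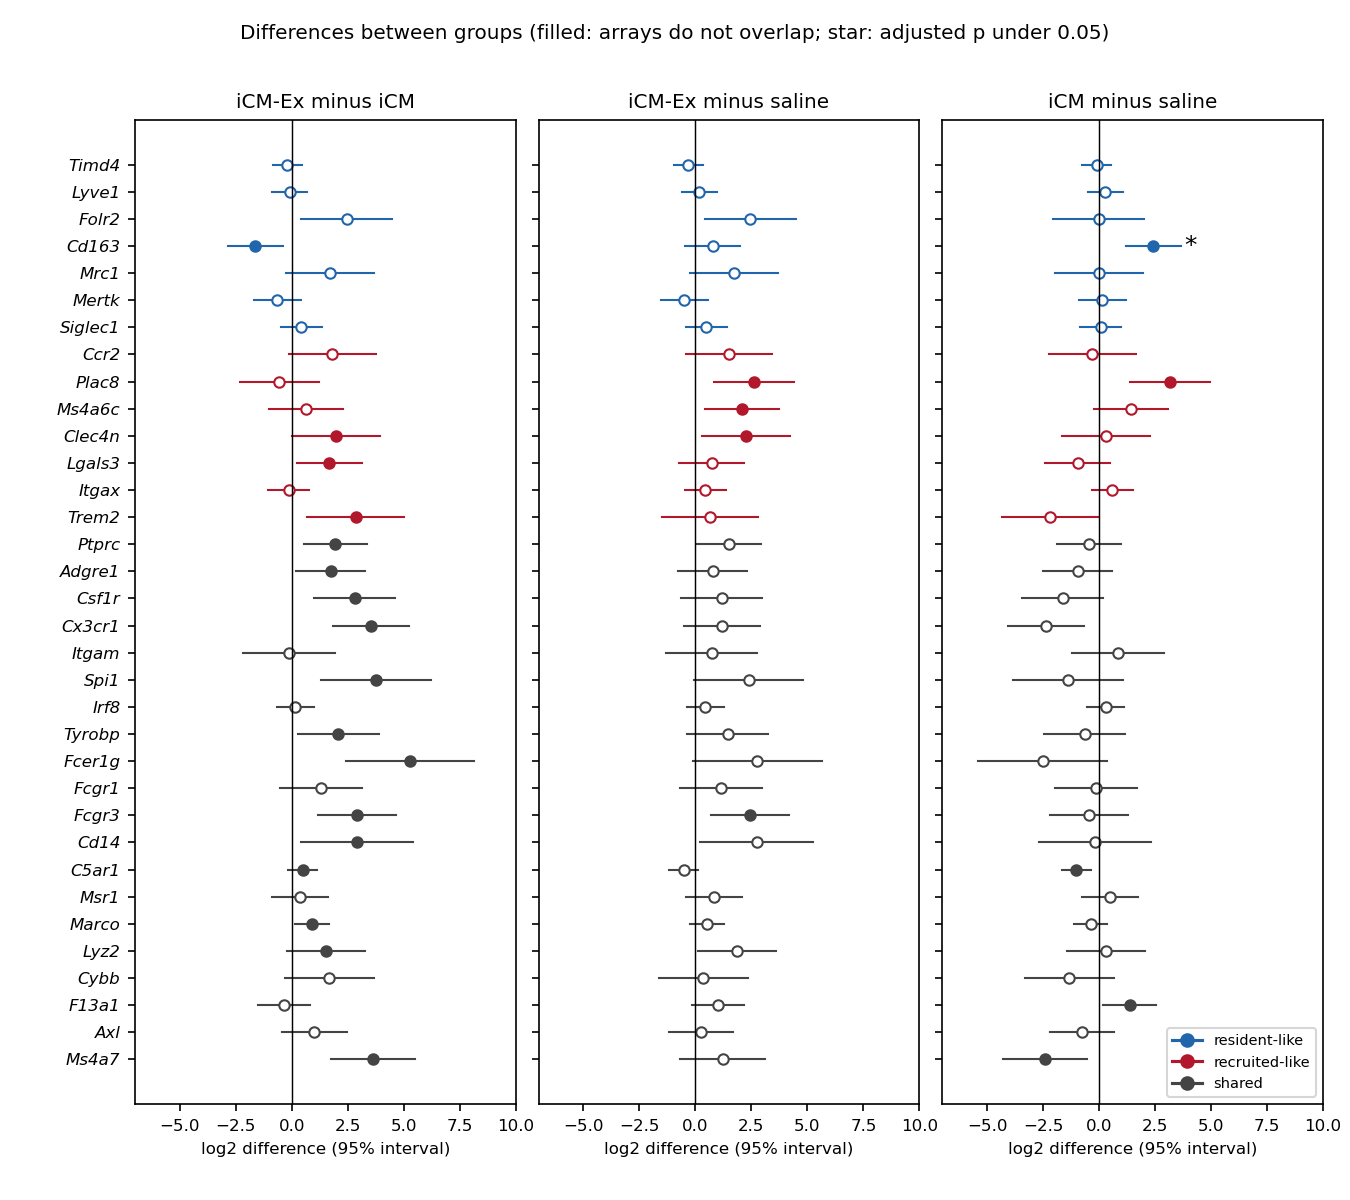
Difference of mean log2 signal for each of the 34 markers in 3 comparisons, with its 95% interval from the limma fit, where blue marks resident-like, red recruited-like and grey shared markers. Filled points are genes whose arrays do not overlap, 17 for iCM-Ex against iCM, 4 for iCM-Ex against saline and 5 for iCM against saline, and the star marks Cd163.

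The second question was how hearts given exosomes differed from those given saline. Of the 34 markers 31 were higher in iCM-Ex, with a median of 1.08, against 53.5% of all genes and a median of 0.04. None passed the limma threshold, against 0.349% of all genes (0.22% higher and 0.128% lower). At an unadjusted limma p under 0.05 there were 8, all higher, against 8.33% of all genes higher and 6.91% lower (15.2% in all). For 4 markers every iCM-Ex array lay above every saline array, which held for 12.2% of all genes, so this share of the markers was near that of all genes. The 4 were Plac8, Ms4a6c, Clec4n and Fcgr3. No marker's iCM-Ex arrays all lay below saline, against 9.53% of all genes (21.7% in either direction). Plac8, Ms4a6c and Clec4n are recruited-like, a split by class that was not tested.

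Plac8 was at 10.10, 10.65 and 9.60 in iCM-Ex, against 6.41, 7.52 and 8.58 in saline (difference 2.61 ± 0.80, limma adjusted p = 0.165). Ms4a6c was at 10.79, 10.94 and 10.23 in iCM-Ex, against 7.31, 8.23 and 10.20 in saline (2.08 ± 0.75, adjusted p = 0.226). Saline replicate 3 was just below the lowest exosome heart. Clec4n was at 9.62, 10.27 and 8.76 in iCM-Ex, against 5.18, 8.41 and 8.28 in saline (2.26 ± 0.88, adjusted p = 0.259), where saline replicate 1 was far below the other saline hearts. Fcgr3 differed by 2.45 ± 0.79 (adjusted p = 0.187), from saline signals of 9.82, 11.88 and 13.79. Its difference was 1.44 (adjusted p = 0.306) without saline replicate 1 and 3.43 (adjusted p = 0.0371) without saline replicate 3. That of Clec4n was 1.21 without saline replicate 1.

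All 7 recruited-like markers were higher in iCM-Ex than in saline, with a median of 1.50 and a range of 0.45 to 2.61. Of the resident-like markers 5 of 7 were higher, with a median of 0.48 and a range of −0.49 to 2.44. Without saline replicate 1 the 2 medians were 0.79 and 0.18, and without saline replicate 3 they were 2.21 and 0.93. Ccr2 differed by 1.50 (interval −0.44 to 3.44), from saline signals of 6.56, 7.98 and 9.39. Folr2 differed by 2.44 ± 0.91 (adjusted p = 0.24), from saline signals of 6.72, 6.90 and 8.97, and Mrc1 by 1.73 ± 0.89 (adjusted p = 0.396), from 10.87, 13.25 and 14.47. In both genes the groups overlapped, and Mrc1 differed by 0.73 without saline replicate 1. Ccr2 differed by 0.66 without iCM-Ex replicate 2. Timd4 differed by −0.31 (interval −0.97 to 0.36) and Lyve1 by 0.18 (interval −0.60 to 0.97), with Lyve1 at 9.29, 9.39 and 9.21 in saline.

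Of the shared markers 19 of 20 were higher, with a median of 1.16, and Fcgr3 was the one without overlap. Fcer1g differed by 2.76 ± 1.29 (adjusted p = 0.346) and Cd14 by 2.73 ± 1.13 (adjusted p = 0.286), from saline signals of 5.51, 7.82 and 9.64. Spi1 differed by 2.38, Lyz2 by 1.86, Ptprc by 1.49, Csf1r by 1.18 and Adgre1 by 0.78. Without saline replicate 1 these were 1.03 for Lyz2, 0.80 for Ptprc, 0.28 for Csf1r, 0.24 for Adgre1 and 1.78 for Fcer1g. Without saline replicate 3 they were 2.73 for Lyz2, 1.93 for Ptprc, 2.03 for Csf1r, 1.37 for Adgre1 and 4.34 for Fcer1g, while Cd14 differed by 1.61 without iCM-Ex replicate 1. The exception was C5ar1, the receptor for the complement fragment C5a, at 6.63, 7.21 and 6.94 in iCM-Ex, against 7.76, 7.02 and 7.60 in saline. The counts depended on which hearts were kept. Without saline replicate 3 the median of the 34 markers was 1.93 and 23 did not overlap upwards, against 19.9% of all genes. Without saline replicate 1 the median was 0.49 and 4 did not overlap upwards, against 17.5% of all genes, and without iCM-Ex replicate 1 it was 1.56 with 13, against 18.6% of all genes. The 8 markers at an unadjusted p under 0.05 numbered 2, 5 and 21 when saline replicates 1, 2 and 3 were left out in turn, and 3 when iCM-Ex replicate 2 was. Genes past the adjusted threshold over the whole array, 68 with all arrays, then numbered 1, 0, 163 and 0. Such swings were thus not confined to the markers. Control separation did not overlap between iCM-Ex and saline either. With it as a covariate the median was 0.73 and 4 markers had an unadjusted limma p under 0.05. Over the whole array 5 genes then passed the adjusted threshold. Endothelial markers were lower in iCM-Ex than in saline in 6 of 9 genes, with a median of −0.61. Of these 4 did not overlap downwards, against 9.53% of all genes, and the part of endothelium in the result was not tested.

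The third question was how hearts given cells differed from those given saline. Cd163 rose in iCM hearts. It was at 7.31, 8.46 and 9.79 in iCM, against 5.62, 6.12 and 6.54 in saline, a difference of 2.43 ± 0.55 or 5.37-fold (95% interval 1.19 to 3.66 on the log2 scale, limma adjusted p = 0.0418). All 3 iCM arrays lay above the other 6 arrays. It was 1 of 34 markers past the threshold, against 3.67% of all genes (1.34% higher and 2.33% lower), so that the share of markers was near the background. The highest signal came from iCM replicate 3, in which most shared markers were at their lowest among the 3 iCM hearts and in which lung (4.81), skeletal muscle (7.36) and adipocyte (6.76) markers were at or near their saline levels. The difference was 3.03 (adjusted p = 0.0284) without the 2 arrays with the highest lung markers and 3.69 (adjusted p = 0.0773) with iCM replicate 3 as the only iCM array, which is then assumed to vary like the other groups. The call was lost with control separation as a covariate, whose ranges did not overlap between iCM and saline (2.59, adjusted p = 0.24), and with these 2 groups alone in the fit (2.43, adjusted p = 0.0911). The adjusted p was 0.0145 without iCM replicate 1, 0.0492 without iCM-Ex replicate 1, and 0.0661 to 0.123 without any one of the other 7 arrays. The other resident-like markers did not go with it, as Mrc1 differed by 0.00, Folr2 by −0.01, Siglec1 by 0.07, Mertk by 0.15 and Lyve1 by 0.28.

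The markers as a whole had a median of −0.16 between iCM and saline, with 14 of 34 higher, against 0.08 and 55.5% over all genes. The median was −0.81 without saline replicate 1 and 0.35 without saline replicate 3, so that its sign rested on 1 saline heart. Arrays did not overlap upwards for 3 markers (Cd163, Plac8 and F13a1) and downwards for 2 (C5ar1 and Ms4a7), against 13.8% and 10.2% of all genes (24% in all). Leaving out replicate 3 of saline gave 8 upwards, and leaving out replicate 3 of iCM gave 6, against 19.5% and 19.1% of all genes, with 3 downwards in each case, against 13.8% and 15.1%. Leaving out replicate 1 of saline gave 10 downwards, and leaving out replicate 1 of iCM gave 5, against 18.7% and 15.2% of all genes. At an unadjusted limma p under 0.05 there were 3 higher and 4 lower, against 10.5% and 9.97% of all genes (20.5% in all). These 7 markers were 11 without saline replicate 1, where 538 genes over the whole array passed the adjusted threshold, against 716 with all arrays. Resident-like markers had a median of 0.07, recruited-like markers of 0.30 and shared markers of −0.55, with 15 of 20 shared markers lower. On leaving out single arrays the resident-like median was −0.17 (without saline replicate 1) to 0.52, and the recruited-like median −0.76 (without saline replicate 1) to 0.98, so that both turned sign. Fibroblast markers were lower in iCM than in saline in 9 of 9 genes, with a median of −1.19, and their part in the result was not tested.

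Plac8 was at 10.97, 12.24 and 8.81 in iCM, against 6.41, 7.52 and 8.58 in saline, a difference of 3.17 ± 0.80 (limma adjusted p = 0.0566). Its highest value was in iCM replicate 2, the array with skeletal muscle and fat markers. The difference was 2.39 (adjusted p = 0.166) without that array and 4.10 (adjusted p = 0.0201) without iCM replicate 3. It was 1.31 without all 3 arrays with lung, muscle or fat markers, with iCM replicate 3 as the only iCM array. F13a1, the A chain of clotting factor XIII, which monocytes and resident macrophages make, was at 8.14, 8.52 and 9.06 in iCM, against 6.70, 7.26 and 7.67 in saline (1.37 ± 0.52, adjusted p = 0.174). Like Cd163 it was highest in iCM replicate 3.

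In the other direction, Ms4a7 was at 10.26, 9.87 and 7.57 in iCM, against 10.28, 11.41 and 13.26 in saline (−2.42 ± 0.85, adjusted p = 0.138), where the highest iCM heart was just below the lowest saline heart. C5ar1 was at 6.51, 6.35 and 6.45 in iCM, against 7.76, 7.02 and 7.60 in saline (−1.02 ± 0.29, adjusted p = 0.0802). Its iCM hearts had an SD of 0.08. Cx3cr1 differed by −2.38 ± 0.77 (adjusted p = 0.114), with saline signals of 5.63, 6.55 and 8.83, and Trem2 by −2.20 ± 0.97 (adjusted p = 0.232). In both genes saline replicate 1 lay within the range of the iCM hearts. Without saline replicate 3 they differed by −1.46 and −0.93, and without saline replicate 1 by −3.06 and −3.30. Ms4a7 differed by −1.59 without iCM replicate 3. Csf1r differed by −1.62 (interval −3.43 to 0.19), with saline signals of 9.49, 11.38 and 13.01, and Adgre1 by −0.96 (interval −2.50 to 0.59), with 7.95, 8.93 and 10.21. Ptprc differed by −0.45, with saline signals of 8.16, 10.05 and 10.41, Ccr2 by −0.30, Timd4 by −0.11, with saline signals of 5.81, 6.05 and 5.16, and Lyz2 by 0.32, with 15.15, 16.76 and 18.55. Without saline replicate 1, Csf1r differed by −2.52, Ptprc by −1.14, Ccr2 by −1.01 and Lyz2 by −0.52. Without saline replicate 3 these were −0.76, −0.01, 0.40 and 1.18, and Adgre1 differed by −0.23 without iCM replicate 3 and −1.52 without iCM replicate 2. None of these values shows the groups to be alike.

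The 2 treatments share their 3 saline hearts, so their differences from saline are not independent. Set side by side as iCM-Ex minus saline and iCM minus saline, Plac8 had 2.61 and 3.17, Ms4a6c 2.08 and 1.44, and F13a1 1.03 and 1.37. Fcer1g had 2.76 and −2.52, Cx3cr1 1.17 and −2.38, Ms4a7 1.21 and −2.42, and Csf1r 1.18 and −1.62. By group means the first 3 genes were higher than saline after either treatment. The last 4 were higher than it after exosomes and lower after cells. The genes set side by side here were chosen after their values were seen. Arrays overlapped those of saline for F13a1 and Ms4a7 in iCM-Ex and for Ms4a6c in iCM. They overlapped in both treatments for Fcer1g, Cx3cr1 and Csf1r. None of these genes passed the limma threshold in either comparison. Cd163 had 0.78 and 2.43, and C5ar1 followed neither pattern, with −0.53 and −1.02.

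**Figure D4:**
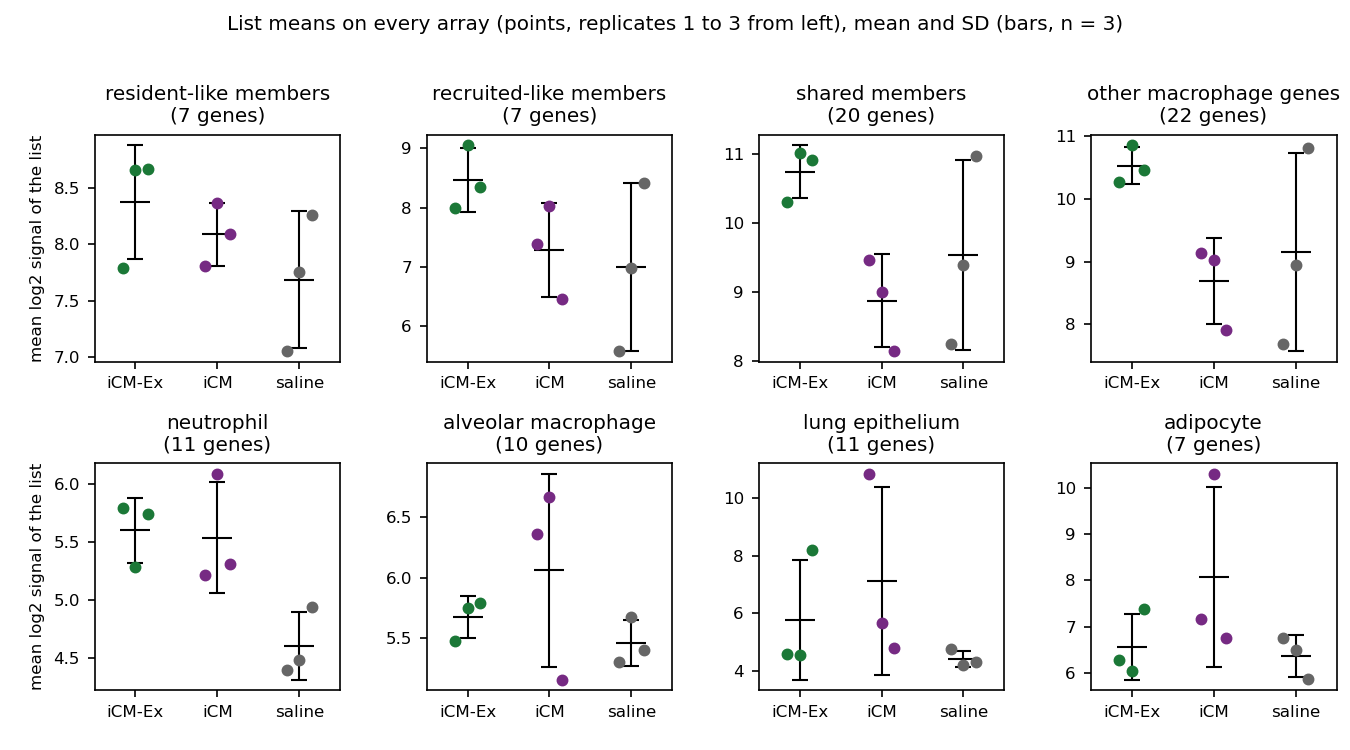
Mean log2 signal of the genes of a list on each array (points, replicates 1 to 3 from left), with the mean and SD of 3 arrays. Shared markers and other macrophage genes separate iCM-Ex from iCM with saline across both, neutrophil markers are lower in saline than in either treatment, and lung and adipocyte markers are high on single arrays.

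Other genes of macrophages and their surroundings were taken from further lists, to be read beside the shares over all genes. In iCM-Ex against iCM, 46.1% of all genes were higher, 1.07% passed the threshold and 14.5% had an unadjusted limma p under 0.05. In iCM-Ex against saline these shares were 53.5%, 0.349% and 15.2%. In iCM against saline they were 55.5%, 3.67% and 20.5%. Of 22 other macrophage genes (complement C1q, phagocyte oxidase, Toll-like receptors and others) 22 were higher in iCM-Ex than in iCM, with a median of 1.49. Cd52, a small surface glycoprotein gene of leukocytes, was the one that rose, at 8.37, 9.84 and 8.90 in iCM-Ex against 6.40, 6.44 and 5.81 in iCM (difference 2.82, limma adjusted p = 0.0386). Relative to saline, 21 of 22 were higher in iCM-Ex (median 1.23) and 4 of 22 in iCM (median −0.43), with 0 past the threshold in either. At an unadjusted limma p under 0.05 there were 8 and 1, against 15.2% and 20.5% of all genes. C1qa, which starts the classical complement cascade, was at 11.87, 12.66 and 12.56 in iCM-Ex, 10.58, 9.72 and 9.79 in iCM and 8.69, 9.87 and 12.37 in saline.

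Of 9 other genes of resident macrophages 7 were higher in iCM-Ex than in iCM (median 0.44). Igf1, an insulin-like growth factor gene that fibroblasts also express, rose in iCM-Ex relative to iCM by 4.68 (adjusted p = 0.0275) and fell by 4.15 in iCM relative to saline (adjusted p = 0.018). Its signals were 13.97, 15.38 and 14.56 in iCM-Ex, 11.58, 9.40 and 8.89 in iCM and 12.88, 14.91 and 14.53 in saline. Among 8 other genes of recruited cells 5 were higher in iCM-Ex than in iCM (median 0.31). Their median thus did not exceed that of the other resident genes. Between iCM and saline 5 of the 8 were higher in iCM (median 0.51) and 3 lower. The lower ones were Fn1 (−2.45), Gpnmb (−2.16) and Vcan (−1.36). Chil3, a chitinase-like gene of monocytes and of alveolar macrophages, rose, at 7.82, 6.27 and 5.97 in iCM against 4.18, 4.45 and 4.65 in saline (2.26, adjusted p = 0.03). Ly6c2, the surface antigen gene of inflammatory monocytes, was at 11.30, 10.93 and 12.40 in iCM, against 9.08, 9.29 and 10.42 in saline (1.95, adjusted p = 0.0679).

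Chil3 was highest on the iCM array with lung markers. The mean of the 10 alveolar macrophage markers was 6.36 and 6.67 in iCM replicates 1 and 2 and 5.15 to 5.79 on the other arrays. Siglecf, which defines alveolar macrophages, was below the median negative control on every array, saline included, so its differences are uncertain. On the 2 arrays with the highest lung markers it was at 3.86 in iCM-Ex and 3.83 in iCM, against 4.14 to 4.97 in saline. Marco, another alveolar macrophage gene, was at 5.20 and 3.33 on those arrays of iCM-Ex and iCM, against 3.99 to 4.37 in saline. Of other genes of the list, Atp6v0d2 and Cidec were above saline there, while Krt79 and Slc39a2 lay within the saline range. Atp6v0d2, a proton pump subunit gene, was at 10.09 and 9.70, its highest values on any array, against 5.09 to 7.87 in saline. It was also at 9.35 in iCM-Ex replicate 2, whose lung marker mean was 4.56. Cidec, a lipid droplet gene that fat also expresses, was at 5.44 and 5.86, against 4.25 to 4.71 in saline. Its highest value was 9.08, in iCM replicate 2. The part of alveolar macrophages in the markers' signals was not tested.

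Among 21 ligands and factors that draw, feed or arm macrophages, 17 were higher in iCM-Ex than in saline (median 0.88) and 13 in iCM (median 0.49). The chemokine gene Ccl8 was at 9.21, 13.91 and 12.86 in iCM-Ex, 9.17, 8.20 and 8.12 in iCM and 5.67, 6.06 and 8.35 in saline, and iCM-Ex differed from saline by 5.30 (limma adjusted p = 0.0754). Ccl2, the main ligand of CCR2, was at 10.94, 9.01 and 8.69 in iCM-Ex, against 4.35, 6.68 and 7.92 in saline (3.23, adjusted p = 0.115). In both genes the exosome hearts lay above all saline hearts. Mfge8, which bridges dying cells to phagocytes, fell by 1.39 in iCM relative to saline (adjusted p = 0.0432).

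Most neutrophil genes had a higher mean than saline after either treatment, 10 of 11 in iCM-Ex (median 0.61) and 9 of 11 in iCM (median 0.66). Over all genes the shares were 53.5% and 55.5%. S100a9, a calprotectin subunit of neutrophils and inflammatory monocytes, rose in iCM relative to saline by 3.20 (limma adjusted p = 0.0352). It was the 1 neutrophil gene past the threshold, against 3.67% of all genes. It was at 7.28, 9.55 and 7.68 in iCM and 3.82, 5.27 and 5.84 in saline. Dendritic cell genes had medians of 0.70 and 0.22 above saline in iCM-Ex and iCM, and mast cell genes of 0.69 and −0.09, with 0 past the limma threshold. At an unadjusted limma p under 0.05 there were 2 and 0 dendritic cell genes and 2 and 1 mast cell genes, against 15.2% and 20.5% of all genes. The part of these cell types in the signals of the shared markers, several of which they also express, was not tested.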

How the data were processed

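RNA from the peri-infarct region of 9 mouse hearts was measured on Clariom S arrays from 5.5 µg of labelled cDNA each, per the labels' protocols. The authors deposited log2 signals, and per the submitters' processing notes the tool was Affymetrix Expression Console. No version, background correction or normalisation is given in the sources used here, and the scale was inferred from the range of the values. Precision is limited by the number of arrays.

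Of 28846 rows 6640 were controls, and 19572 had 1 gene symbol. The brightest row of each gene was kept, which left 19505 genes, 34 of 35 markers among them with 1 row each. All 9 arrays entered 1 limma fit (version 3.58.1, R 4.3.3) with a mean per group, and p-values were adjusted by Benjamini-Hochberg over 19505 genes within each of 3 contrasts, two-sided. The markers, the other lists and the alternatives were chosen with earlier results of these data known.

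Described with every array's value were markers past the threshold, markers without overlap among the 5 largest differences of a contrast, and Adgre1, Csf1r, Ptprc, Ccr2, Timd4, Lyve1 and Lyz2. Of the other lists up to 4 genes past the threshold, or else the 2 with the smallest p, could be named. Values given for other markers were chosen after being seen. So were C1qa, Ly6c2, Fn1, Gpnmb, Vcan, Siglecf, Atp6v0d2, Cidec, Krt79, Slc39a2, Abcg1, Ctsk, Pparg, Fabp1, Sftpc, Sftpa1, Ccl8 and Ccl2. The fit was tested on simulated data. Promoter windows are RefSeq's (GRCm38.p6).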

Additional observations from a re-analysis of the deposited data

How the results depend on the processing

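Every difference was recomputed under 17 alternatives. Leaving out single arrays gave 0 to 1 markers past the threshold for iCM minus saline, 0 to 1 for iCM-Ex minus saline and 0 to 3 for iCM-Ex minus iCM. For iCM minus saline the count was 2 under quantile normalisation or among genes above the median negative control (Cd163 and Plac8), and 0 with the 2 groups alone, without the 3 arrays that held lung, muscle or fat markers, or with control separation as a covariate, where Cd163 differed by 2.59 (adjusted p = 0.24). For iCM-Ex minus iCM it was 1 under quantile normalisation (Cx3cr1) and 2 among genes above the negative control (Cx3cr1 and Ms4a7). The iCM-Ex minus iCM median of the recruited-like markers was 0.96 to 1.93 on leaving out single arrays, and that of all markers was 0.57 with the covariate. Without those 3 arrays iCM replicate 3 was the only iCM array, and the recruited-like median for iCM minus saline was −1.10. That heart was the lowest of the iCM hearts for 6 of the 7 recruited-like markers. The cause of these shifts was not tested.

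Differences near 0 turned sign. On leaving out single arrays, iCM minus saline ran from −1.01 to 0.40 for Ccr2, −0.37 to 0.07 for Timd4 and −0.52 to 1.18 for Lyz2, and Lyve1 ran from −0.20 to 0.44 for iCM-Ex minus saline and −0.48 to 0.16 for iCM-Ex minus iCM. With the covariate, Ptprc was 0.41 and Ccr2 0.46 for iCM minus saline, and Lyve1 0.00 for iCM-Ex minus iCM. Without the 2 arrays with the highest lung markers, Lyz2 was −0.23 for iCM minus saline and Lyve1 −0.20 for iCM-Ex minus saline, and without all 3 they were −0.92 and −0.20, and Lyve1 −0.02 for iCM minus saline.

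Equal replicate numbers did not mark arrays that deviated together (correlations −0.26 to 0.07 across genes), and the labels tie them to no shared animal or day. With the number as a replicate block the medians and the 1, 0 and 0 markers past the threshold were as before, with adjusted p = 0.0309 for Cd163, while genes past it over the whole array numbered 338, 0 and 18, against 716, 68 and 208 without the block. Those 3 counts were 126 to 803, 0 to 163 and 0 to 401 on leaving out single arrays, 279, 1 and 13 with the 2 groups alone, and 33, 5 and 0 with the covariate.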
